A study of Rattus norvegicus with 20 samples.

Results

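The comparison described here sets inguinal white adipose tissue (iWAT) from obese ZSF1 rats given Compound 1 (Cmpd 1) against iWAT from obese ZSF1 rats given none. Its members are the 10 libraries whose titles name these groups, 5 Cmpd 1 and 5 Obese rats, of 20 libraries in the series. Cmpd 1 is an ATP-competitive inhibitor of protein kinase C α and β. ZSF1 obese rats carry mutant leptin receptor alleles and develop obesity, diabetes and kidney disease on a Purina chow that all groups ate. Male rats were 21 to 22 weeks old at the start and about 32 weeks old after 10 weeks. The Cmpd 1 group ate chow formulated to give approximately 50 mg/kg of compound a day. The Food matched group, also obese by its titles although its phenotype label reads lean, had no compound and an intake restricted to follow that of the Cmpd 1 group. The Obese group ate compound-free chow without restriction, and the Lean group was of ZSF1 lean rats. RNA came from 5 rats of each group, selected at random. The contrast of Cmpd 1 with Obese rats holds the compound together with any effect of intake, and these cannot be told apart in it. In the study, estimated intake of the Cmpd 1 group was reduced at first and came near that of Obese rats by the end. Body weight and iWAT weight were then lower in Cmpd 1 than in Obese rats. The Food matched group was given the amount that the Cmpd 1 group had eaten in the previous week.

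iWAT is a subcutaneous fat depot in which adipocytes store triglyceride and secrete leptin, among other hormones. Macrophages, T cells and other immune cells enter it in obesity, some macrophages divide there, and matrix is laid down around enlarged adipocytes. Protein kinase C enzymes are serine and threonine kinases, and the α and β isoforms respond to calcium and diacylglycerol.

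Reads counted per library ran from 31716457 to 65759306 in Cmpd 1 rats and from 56743417 to 70206686 in Obese rats, with Cmpd 1 rat 4 the shallowest. Mitochondrially encoded genes took 9.89 ± 1.03% of reads in Cmpd 1 rats and 10.8 ± 0.838% in Obese rats (SD, n = 5 each), a difference of −0.945 percentage points (two-sided exact permutation test over all splits of the 10 rats, p = 0.151). Without Cmpd 1 rat 1 the difference was −1.37 points (exact p = 0.0159). Without Obese rat 1, the highest of its group, it was −0.579 points (exact p = 0.31). In all fits without 1 rat other than that without Cmpd 1 rat 1, the exact p was 0.143 or more. The 10 adipocyte marker genes summed to 21218 to 22739 CPM (the reads of a gene scaled by the TMM-adjusted library total) in Cmpd 1 rats and 21299 to 25351 CPM in Obese rats. Only Obese rat 3 lay within the Cmpd 1 range, and the other Obese rats were at 24600 CPM or more. Most of this sum was Fabp4, Lep and Adipoq, of which Fabp4 and Lep were lower with Cmpd 1. Marker genes of other tissues varied in level. The 8 tested blood genes, nearly all of it haemoglobin, summed to 446 to 1429 CPM in Cmpd 1 rats, the highest in rat 5, and to 540 to 1461 CPM in Obese rats, the highest in rat 3. The 10 nerve and Schwann cell genes, most of it S100b, which adipocytes also make, summed to 1833 to 2026 CPM in Cmpd 1 rats and 1836 to 2218 CPM in Obese rats. Both sums overlapped between the groups. The 9 tested lymph node genes, most of it Cxcl13, summed to 9.88 to 28.1 CPM in Cmpd 1 rats and 6.28 to 15.99 CPM in Obese rats, with overlap. The 10 tested skeletal muscle genes summed to at most 15.5 CPM in Cmpd 1 rats and at most 21.8 CPM in Obese rats. The 6 tested mesothelial genes summed to 3.31 to 14.7 CPM in Cmpd 1 rats and to 3.58 to 110.4 CPM in Obese rats, the highest in Obese rat 2. The secretoglobin gene Scgb2a1, expressed in glands, was at 0.0303 CPM or less in Cmpd 1 rats and at 37.9 CPM in Obese rat 4, against at most 0.105 CPM in the other Obese rats. In a principal component analysis of the 10 libraries the first component, with 25.2% of the variance, placed Cmpd 1 rats at 7.15 to 42.1 and Obese rats at −41.9 to −14.7. Cmpd 1 rat 4 and Obese rat 4 were the farthest apart and Cmpd 1 rat 1 was the Cmpd 1 rat nearest to the Obese rats. Fewer cells of a type and less RNA per cell cannot be told apart in bulk tissue.

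More genes fell than rose beyond the fold threshold with Cmpd 1. Genes past 1.5-fold that also had an edgeR adjusted p under 0.05 are termed differentially expressed genes (DEGs), and 623 of 17653 genes tested (3.53%) were DEGs. Of these 129 (0.731% of genes tested) were higher in Cmpd 1 rats and 494 (2.8%) were lower. Over 2-fold there were 41 higher and 170 lower DEGs. Without a fold threshold the directions were nearly even, with 1251 genes (7.09%) higher and 1224 (6.93%) lower at an adjusted p under 0.05, 14% of genes in all. The median log2 fold change was 0.27 among the higher and −0.49 among the lower of these genes, and −0.00063 over all genes tested. The 5 libraries of each group did not overlap for 399 of the DEGs, and for 1899 of all genes tested (10.8%), with Cmpd 1 rats above for 5.4% and below for 5.36%. Scaling by library size alone moved the median of all genes to 0.06 and split the DEGs into 198 higher and 428 lower, and the genes at an adjusted p under 0.05 into 2279 higher and 874 lower. DEG counts also rested on single rats, with 365 DEGs without Cmpd 1 rat 4 and 394 without Obese rat 4.

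**Figure D1:**
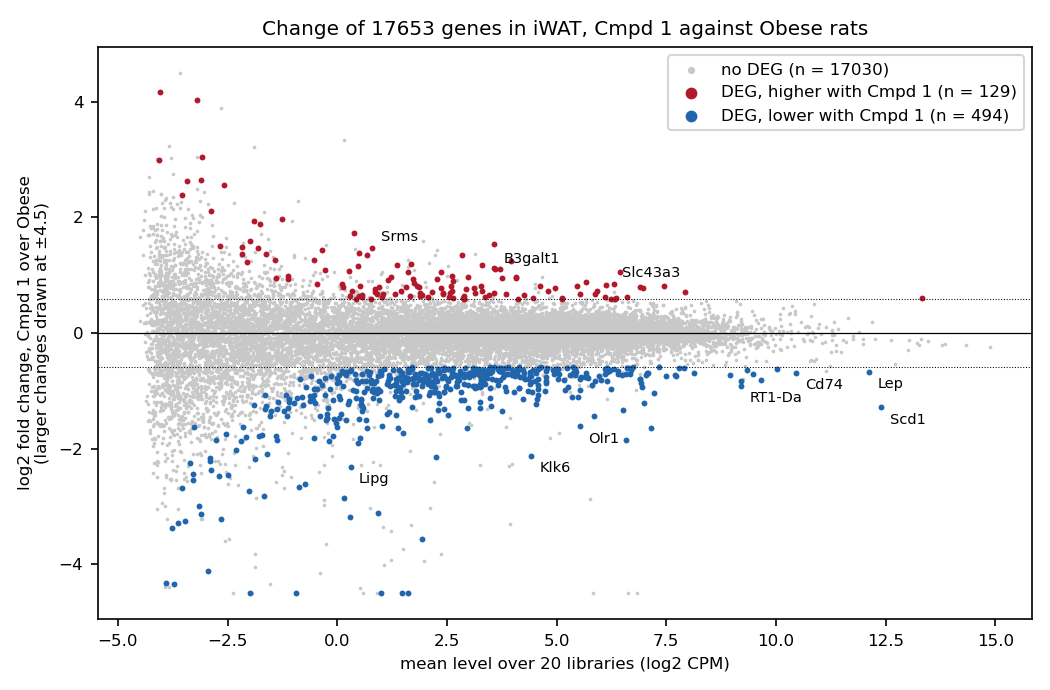
Fitted log2 fold change of Cmpd 1 over Obese rats (y axis) against mean level in log2 CPM (x axis) for 17653 genes, each point a gene, with dotted lines at the fold threshold of 1.5 and changes past the edge drawn at the edge. The 494 lower DEGs outnumber the 129 higher ones.

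Rats within a group were not alike. Among the 494 DEGs that were lower, Cmpd 1 rat 4 had the lowest level of its group for 288 and Cmpd 1 rat 1 the highest of its group for 258. Obese rat 4 had the highest level of its group for 256 of them, and Obese rat 2 the lowest of its group for 221. Among the 129 higher DEGs Cmpd 1 rat 1 had the lowest level of its group for 74, and Cmpd 1 rat 4 for 0. The Cmpd 1 rat that lay farthest from the Obese rats was thus also the one with the fewest reads. With every library thinned to the smallest total, 595 genes were DEGs.

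The leading increases were of transporters, enzymes and receptors with modest levels. RGD1311739, a gene with no assigned name (rn6 chromosome 3, 123688634 to 123702732), had the smallest p of all genes. It was at 75.1, 76.6, 74.7, 85.6 and 77.02 CPM in Cmpd 1 rats 1 to 5 and at 49.9, 55.4, 49.5, 48.2 and 50.2 CPM in Obese rats 1 to 5. Every Cmpd 1 rat stood above every Obese rat, with little spread inside either group (log2 fold change 0.62, SE 0.06, edgeR adjusted p = 4.4e-05). Without Cmpd 1 rat 4 its change was 0.58, just under the fold threshold. Slc43a1, which encodes an amino acid transporter that carries branched-chain amino acids, was at 20.1, 26.3, 26.6, 30.8 and 22.6 CPM in Cmpd 1 rats and 15.1, 16.1, 14.2, 12.4 and 13.8 CPM in Obese rats. The groups did not overlap and Cmpd 1 rat 4 was again highest (log2 fold change 0.82, SE 0.09, edgeR adjusted p = 4.8e-05). Its relative Slc43a3, a purine nucleobase transporter, was at 61.99, 82.7, 90.7, 101 and 75.4 CPM in Cmpd 1 rats and 40.9, 59.2, 41.7, 40.4 and 45.02 CPM in Obese rats, also without overlap (log2 fold change 0.86, SE 0.14, edgeR adjusted p = 0.0009). B3galt1, a galactosyltransferase of glycan synthesis, was at 7.896, 12.7, 13.7, 17.8 and 12.2 CPM in Cmpd 1 rats and 6.01, 6.05, 5.52, 6.46 and 5.74 CPM in Obese rats. Obese rats lay within a narrow band and Cmpd 1 rats spread upward from just above it (log2 fold change 1.10, SE 0.17, edgeR adjusted p = 0.00075).

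Srms, a tyrosine kinase related to Src, had the highest fold among the DEGs that carry an assigned symbol, average 1 CPM or more and do not overlap between groups. It was at 1.997, 1.68, 2.56, 2.57 and 2.69 CPM in Cmpd 1 rats and 0.745, 0.941, 1.26, 0.433 and 0.735 CPM in Obese rats (log2 fold change 1.48, SE 0.25, edgeR adjusted p = 0.0014). Prdm8, a transcriptional regulator of the PR domain family, was at 10.6, 22, 13.4, 16.3 and 16.6 CPM in Cmpd 1 rats and 7.04, 9.12, 8.08, 5.47 and 6.67 CPM in Obese rats (log2 fold change 1.12, SE 0.20, edgeR adjusted p = 0.0018). Both genes were lowest in single Cmpd 1 rats that still exceeded every Obese rat. Signalling genes among the leading increases were Hrh3, the histamine H3 receptor (1.05 on the log2 scale) and Cntfr, a receptor subunit for ciliary neurotrophic factor (0.86). The others were Trhde, which degrades thyrotropin-releasing hormone (0.98), Fign, a microtubule-severing enzyme (0.97), Bzrap1, a scaffold protein known from synapses (0.93), and Epn3, an endocytic adaptor (0.92). The call of Epn3 was lost without any one of Cmpd 1 rat 5 and Obese rats 3, 4 and 5, where its change was 0.79 to 0.87. Gsn, which encodes the actin-severing protein gelsolin, was chosen after its values were seen as an abundant DEG that rose, with 12283 ± 2328 CPM in Cmpd 1 rats and 8115 ± 1260.1 CPM in Obese rats (SD, n = 5 each; log2 fold change 0.60).

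**Figure D2:**
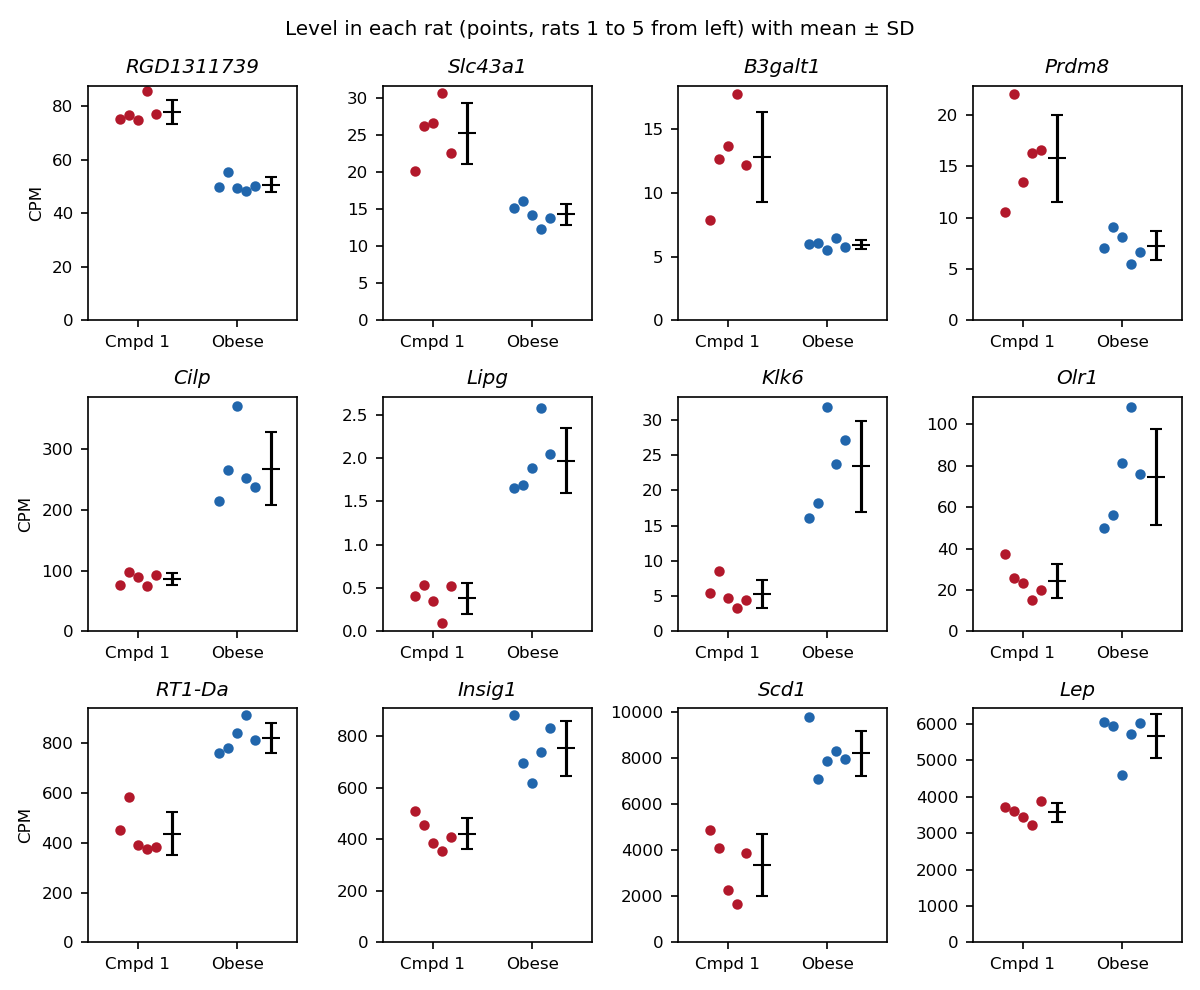
CPM of 12 genes in each rat (y axes start at 0), Cmpd 1 rats at left and Obese rats at right of each panel, points in the order of rats 1 to 5, with the mean and SD of 5 rats beside them. In all 12 panels every Cmpd 1 rat lies on one side of every Obese rat, as for Lipg, where Cmpd 1 rats reach 0.536 CPM and Obese rats start at 1.65 CPM.

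Genes of secreted and matrix proteins were among the largest decreases. Cilp, which encodes cartilage intermediate layer protein of the extracellular matrix (rn6 chromosome 8, 70760922 to 70775891), was at 75.6, 97.00, 89.4, 75.4 and 93.2 CPM in Cmpd 1 rats and 214, 265, 371, 251.7 and 237 CPM in Obese rats. The highest Cmpd 1 rat was far below the lowest Obese rat (log2 fold change −1.64, SE 0.17, edgeR adjusted p = 4.4e-05). Lipg, the endothelial lipase that hydrolyses lipoprotein phospholipids, was at 0.408, 0.536, 0.354, 0.0919 and 0.527 CPM in Cmpd 1 rats and 1.65, 1.69, 1.89, 2.58 and 2.04 CPM in Obese rats (log2 fold change −2.31, SE 0.31, edgeR adjusted p = 0.00033). Klk6, a secreted serine protease, was at 5.43, 8.55, 4.71, 3.34 and 4.46 CPM in Cmpd 1 rats and 16.1, 18.2, 31.8, 23.6 and 27.1 CPM in Obese rats (log2 fold change −2.12, SE 0.36, edgeR adjusted p = 0.0014). Neither gene overlapped between groups, and Cmpd 1 rat 4 had the lowest value of both.

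Olr1, a scavenger receptor for oxidised low-density lipoprotein, was at 37.3, 25.8, 23.4, 14.9 and 19.9 CPM in Cmpd 1 rats and 50.1, 56.3, 81.5, 108 and 75.8 CPM in Obese rats (log2 fold change −1.61, SE 0.26, edgeR adjusted p = 0.00095). Megf10, an engulfment receptor, was at 0.756, 1.36, 0.979, 1.26 and 0.703 CPM in Cmpd 1 rats and 3.04, 3.66, 3.25, 2.33 and 2.97 CPM in Obese rats (log2 fold change −1.60, SE 0.20, edgeR adjusted p = 0.00023). Neither gene overlapped between groups. Of the other large decreases, Pappa2, a protease that cleaves insulin-like growth factor binding proteins, fell by 1.64 on the log2 scale. Inhba, a subunit of activin A, fell by 1.81 (not called by limma-voom, at −1.42) and was uneven among Obese rats, at 1.53, 0.735, 2.81, 4.82 and 0.9403 CPM, while Cmpd 1 rats held 0.6504, 0.603, 0.708, 0.521 and 0.5799 CPM. Padi2, which converts arginine to citrulline in proteins (−1.72), Krt79, a keratin (−1.64), Gucy2f, a guanylate cyclase known from the retina (−1.65), and Clec2d2, a C-type lectin (−1.51), were also among the 12 with the largest falls under the same conditions. AABR07062206.1, a protein-coding gene with no assigned name and so outside that rule, was among the 10 smallest p-values, at 0.484, 0.6702, 0.229, 0.214 and 0.474 CPM in Cmpd 1 rats and 3.96, 2.67, 2.73, 5.49 and 3.63 CPM in Obese rats (log2 fold change −3.11, SE 0.34, edgeR adjusted p = 4.8e-05). Grifin, a galectin-related gene, had 51.9, 56.9, 33.8, 36.2 and 48.99 CPM in Cmpd 1 rats and 138, 95.8, 115, 123 and 105 CPM in Obese rats, also among those 10 (log2 fold change −1.34, SE 0.15, edgeR adjusted p = 6e-05). Polr2a, the largest subunit of RNA polymerase II, was in that same group of 10 with a small rise, at 307, 272, 317, 320.2 and 314 CPM in Cmpd 1 rats and 218, 228, 235, 225 and 225 CPM in Obese rats (log2 fold change 0.44, SE 0.05, edgeR adjusted p = 7.7e-05).

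Lists of genes of known function show where the small and large changes fell. Each list is described by its members at an adjusted p under 0.05, to be read beside the 7.09% of all genes that were higher and the 6.93% that were lower. The 49 lists hold 988 genes, of which 941 were tested.

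**Figure D3:**
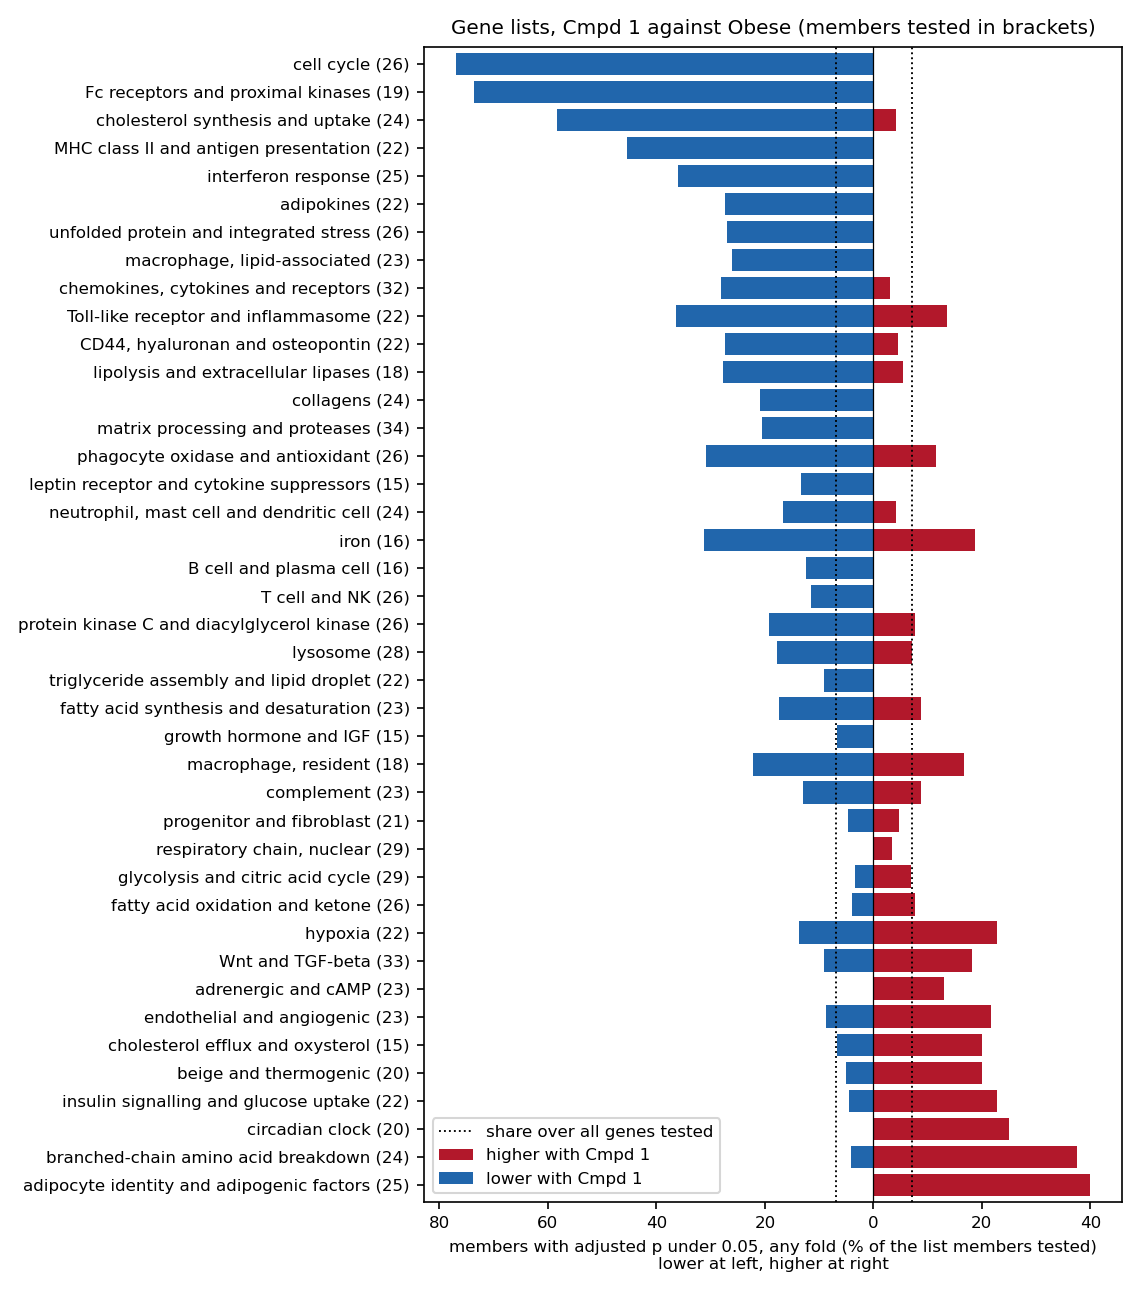
Share of tested members (x axis, percent) with an adjusted p under 0.05 at any fold, lower with Cmpd 1 to the left and higher to the right, for 41 gene lists with the number tested in brackets, and dotted lines at the shares over all genes tested. Cell cycle (20 of 26) and Fc receptor genes (14 of 19) reach farthest to the left, and adipocyte identity genes (10 of 25) farthest to the right.

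Cell cycle genes were lower in iWAT from Cmpd 1 rats. Of 26 tested, 16 were DEGs and all of these were lower, where 2.8% of all genes were lower DEGs, and 20 were lower at an adjusted p under 0.05. Their median log2 fold change was −0.73, against −0.00063 over all genes. Mki67, which encodes the proliferation marker Ki-67, was at 38.6, 28.2, 24.4, 16.8 and 26.7 CPM in Cmpd 1 rats and 45.4, 42.3, 62.3, 62.2 and 56.4 CPM in Obese rats. Cmpd 1 rat 1 came close to Obese rat 2 without overlap (log2 fold change −0.99, SE 0.20, edgeR adjusted p = 0.0041). Ccna2, cyclin A2, was at 7.503, 5.43, 3.77, 3.09 and 5.32 CPM in Cmpd 1 rats and 9.19, 8.76, 11.01, 12.3 and 9.89 CPM in Obese rats (log2 fold change −1.01, SE 0.20, edgeR adjusted p = 0.0035). Cdk1, the kinase that drives entry into mitosis, was at 9.35, 7.96, 4.29, 4.96 and 7.33 CPM in Cmpd 1 rats and 10.5, 9.87, 14.9, 17.00 and 13.2 CPM in Obese rats (log2 fold change −0.94, SE 0.21, edgeR adjusted p = 0.006). For both, the highest Cmpd 1 rat was rat 1 and the lowest Obese rats were rats 1 and 2. Top2a, the DNA topoisomerase of dividing cells, overlapped by 1 rat, with 25.2, 19.02, 13.2, 9.99 and 17.01 CPM in Cmpd 1 rats and 26.6, 24.9, 35.7, 41.7 and 37.9 CPM in Obese rats (log2 fold change −0.97, SE 0.20, edgeR adjusted p = 0.0047). Other members that fell were the spindle genes Bub1b (−1.02), Kif20a (−0.93), Nusap1 (−0.88), Kif11 (−0.83) and Tpx2 (−0.78) and the ribonucleotide reductase subunit Rrm2 (−0.93). The replication genes Mcm2 (−0.31), Mcm6 (−0.34), Tyms (−0.15) and Ccne1 (−0.26) did not pass the test. Without Cmpd 1 rat 4 the list held 8 lower DEGs and without Obese rat 4 it held 9, where the medians were −0.62 and −0.67.

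The promoters of 21 of the 26 genes were found in RefSeq's rat table (build GRCr8), and the 250 bases before the start were searched on both strands. CCAAT, the box bound by the factor NF-Y, was present in 15 of the 21 (71.4%) and in 34.3% of all 27457 promoters. TTTGAA, the core of the cell cycle homology region, was present in 5 of the 21 (23.8%) and in 16.03% of all promoters. A match is a description of the letters only, and both motifs were chosen with the results of the list known. The last 150 bases before the start are shown for 4 members that fell, picked because they hold a motif there, with either motif in capitals on either strand (CCAAT reads ATTGG and TTTGAA reads TTCAAA on the other strand). They lie at chr20:19265143-19265292 (plus strand), chr1:199952594-199952743 (minus strand), chr10:84473094-84473243 (minus strand) and chr18:26504272-26504421 (plus strand) in GRCr8. Bub1b, which also fell, has neither motif in its 150 bases. In Mki67 a TTTGAA and an ATTGG share a base.
Cdk1: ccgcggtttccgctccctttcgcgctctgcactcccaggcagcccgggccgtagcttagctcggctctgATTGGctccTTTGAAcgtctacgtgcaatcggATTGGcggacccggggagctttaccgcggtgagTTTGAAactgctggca
Mki67: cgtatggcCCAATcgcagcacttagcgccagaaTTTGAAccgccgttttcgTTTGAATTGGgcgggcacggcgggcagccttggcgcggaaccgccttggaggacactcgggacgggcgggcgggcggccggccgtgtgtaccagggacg
Top2a: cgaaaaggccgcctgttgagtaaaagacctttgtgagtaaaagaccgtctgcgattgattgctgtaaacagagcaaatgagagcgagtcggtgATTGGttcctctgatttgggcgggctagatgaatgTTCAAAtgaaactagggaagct
Kif20a: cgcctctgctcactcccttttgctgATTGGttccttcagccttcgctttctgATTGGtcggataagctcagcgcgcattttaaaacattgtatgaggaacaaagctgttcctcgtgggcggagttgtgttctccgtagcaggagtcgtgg

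MHC class II genes, whose products present peptides to CD4 T cells, were lower with Cmpd 1. Of 22 antigen presentation genes tested, 6 were DEGs, all lower, 10 were lower at an adjusted p under 0.05 and 0 were higher, with a median of −0.38. Without any one of Cmpd 1 rats 3, 4 and 5 and Obese rats 3 and 4 the lower count was 6. RT1-Da, a rat class II α chain (rn6 chromosome 20, 4127644 to 4132616), was at 451, 583, 389.8, 373 and 384 CPM in Cmpd 1 rats and 761, 777, 839.8, 911 and 811 CPM in Obese rats. The groups were well apart, with Cmpd 1 rat 2 the highest of its group (log2 fold change −0.91, SE 0.10, edgeR adjusted p = 4.4e-05). RT1-Ba, another α chain, was at 149, 187, 116, 135 and 142 CPM in Cmpd 1 rats and 227, 225, 250.3, 267 and 253 CPM in Obese rats (log2 fold change −0.75, SE 0.10, edgeR adjusted p = 0.0003). Cd74, the invariant chain that guides class II molecules, was at 1321, 1501, 1002, 1002 and 1114 CPM in Cmpd 1 rats and 1755, 1752, 2062, 2055 and 1926 CPM in Obese rats (log2 fold change −0.69, SE 0.10, edgeR adjusted p = 0.00052). Cmpd 1 rats 3 and 4 were lowest in Cd74 and no Cmpd 1 rat reached an Obese one. RT1-Bb (−0.69), RT1-Db1 (−0.73) and the costimulatory ligand Cd80 (−0.69) were the other DEGs. Ciita, the activator of class II transcription, was lower by less than the fold threshold (−0.57). On the class I side Tap1 fell slightly (−0.19), and B2m, the light chain of class I molecules, was at −0.03 and did not pass. Reads that map to several near-identical RT1 genes were not counted, which leaves their levels uncertain. In 11 of the 19 promoters of the list found in RefSeq (57.9%) CCAAT was present, against 34.3% of all promoters. In class II promoters it forms the Y box, but Lgmn, B2m and Psmb8, also among the 11, are not class II genes. CCAAT was in 5 of 9 promoters of the members that were lower (55.6%). Among fatty acid synthesis genes, described below, it was in 13 of 20 promoters (65%). The 150 bases before the start are shown for 3 class II genes that fell, picked because they hold CCAAT there (Cd74 does not), with CCAAT in capitals on either strand, at chr20:4515265-4515414 (plus strand), chr20:4576907-4577056 (plus strand) and chr20:4604119-4604268 (minus strand) in GRCr8.
RT1-Da: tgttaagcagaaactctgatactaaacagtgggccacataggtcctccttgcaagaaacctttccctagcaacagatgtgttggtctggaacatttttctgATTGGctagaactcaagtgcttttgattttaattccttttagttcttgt
RT1-Ba: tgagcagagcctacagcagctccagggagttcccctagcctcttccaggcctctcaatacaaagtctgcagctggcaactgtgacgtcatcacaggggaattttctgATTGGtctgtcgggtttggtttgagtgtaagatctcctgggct
RT1-Bb: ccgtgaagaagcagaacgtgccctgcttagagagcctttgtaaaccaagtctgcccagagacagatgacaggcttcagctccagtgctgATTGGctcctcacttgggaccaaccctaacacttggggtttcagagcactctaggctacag

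**Figure D4:**
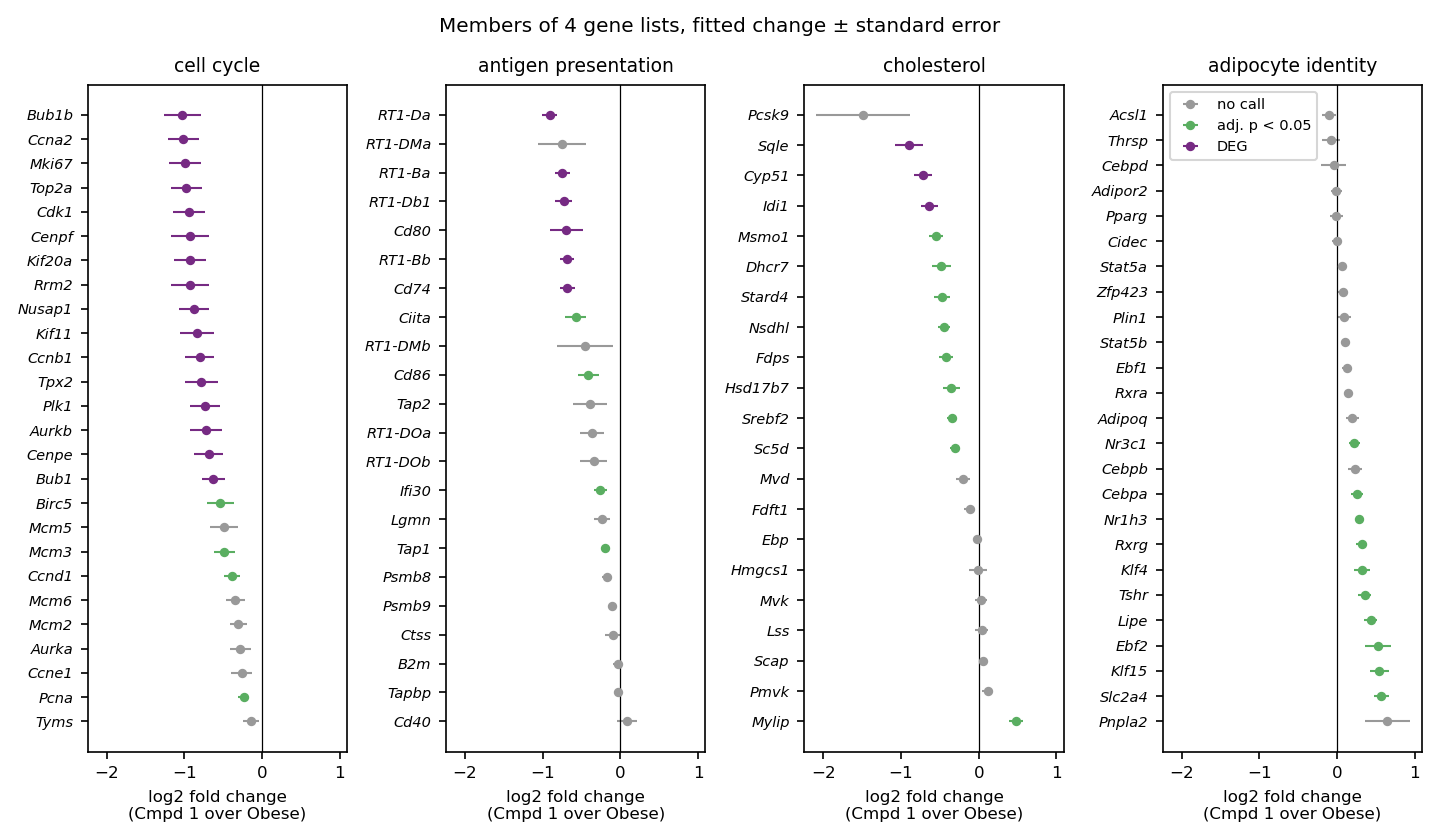
Fitted log2 fold change of Cmpd 1 over Obese rats (x axis) with its standard error for tested members of 4 lists, 21 of 24 in the cholesterol list, coloured by whether the gene was a DEG, had an adjusted p under 0.05 only, or neither. All 26 cell cycle genes lie below 0, and in the adipocyte identity list 0 of 25 are DEGs while 10 are higher at an adjusted p under 0.05.

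Genes of Fc receptors, which bind antibody on phagocytes, and of the kinases beneath them were lower. Of 19 tested, 14 were lower at an adjusted p under 0.05, 0 were higher, 5 did not pass and 2 were lower DEGs, with a median of −0.42. Fcgr3a, a low-affinity receptor for immunoglobulin G, was at 9.06, 7.86, 8.21, 4.47 and 7.12 CPM in Cmpd 1 rats and 18.2, 14.2, 18.9, 26.5 and 16.5 CPM in Obese rats. The lowest Obese rat was well above the highest Cmpd 1 rat (log2 fold change −1.35, SE 0.19, edgeR adjusted p = 0.00053). Fcer1g, the signalling chain shared by these receptors, was at 173, 158, 134, 99.3 and 135 CPM in Cmpd 1 rats and 201, 185, 231, 236 and 202 CPM in Obese rats (log2 fold change −0.59, SE 0.12, edgeR adjusted p = 0.0033). Its change was −0.49 to −0.58 without any one of Cmpd 1 rats 3, 4 and 5 and Obese rats 3 and 4, which is under the fold threshold. The kinases Btk (−0.54), Syk (−0.43) and Lyn (−0.42) and the exchange factor Vav1 (−0.42) were lower below the fold threshold. The list held 7 lower members without Cmpd 1 rat 4, 8 without Obese rat 3 and 9 without Obese rat 4.

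Macrophage genes moved in both directions. Of 18 genes of resident macrophages 4 were lower and 3 higher at an adjusted p under 0.05. Siglec1, the sialic acid receptor CD169, was at 133, 118, 106, 85.9 and 108 CPM in Cmpd 1 rats and 152, 149, 193, 212 and 181 CPM in Obese rats (log2 fold change −0.69, SE 0.15, edgeR adjusted p = 0.006). Cd68 was the other lower DEG, at 205 ± 39.5 CPM in Cmpd 1 rats and 311 ± 47.5 CPM in Obese rats (SD, n = 5 each), without overlap. Its log2 fold change of −0.598 lay just past the fold threshold (SE 0.15, edgeR adjusted p = 0.0142). Stab1, a scavenger receptor (0.48), and Maf, a transcription factor of resident macrophages (0.42), were higher below the fold threshold. Timd4, a phosphatidylserine receptor, was past it, at 1.32, 3.47, 3.103, 4.14 and 4.87 CPM in Cmpd 1 rats and 0.994, 2.29, 2.34, 1.32 and 1.16 CPM in Obese rats. These overlapped, and the call (adjusted p = 0.049 from edgeR) was lost under 13 of the 21 alternative settings. Without 1 rat the higher count ran between 0 (without Cmpd 1 rat 4 or 5 or Obese rat 4) and 6 (without Cmpd 1 rat 1). The list summed to 2043 to 2581 CPM in Cmpd 1 rats and 2310 to 2895 CPM in Obese rats. Of 23 genes of lipid-associated macrophages 6 were lower and 0 higher, with a median of −0.33. Cd300lf, an inhibitory receptor of myeloid cells, was at 6.31, 6.32, 5.44, 3.65 and 4.67 CPM in Cmpd 1 rats and 9.16, 7.37, 9.89, 10.2 and 7.52 CPM in Obese rats (log2 fold change −0.74, SE 0.17, edgeR adjusted p = 0.0072). Trem2 was lower below the fold threshold (−0.54). Spp1 (−0.79), Mmp12 (−0.90), Gpnmb (−0.65) and Lgals3 (−0.49) did not pass. Spp1, osteopontin, was nonetheless lower in all 5 Cmpd 1 rats, at 506, 458, 451, 250.1 and 404 CPM, than in the Obese rats, at 611, 542, 825, 841 and 758 CPM. Without the Lean libraries in the fit 14 of the 23 were lower and Spp1 passed. Without any one of Cmpd 1 rats 3, 4 and 5 and Obese rats 3, 4 and 5 there were 3, and without Obese rat 2 there were 10.

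Markers of other immune cells are set side by side because such cells differ between lean and obese fat. The T cell and NK genes summed to 407 to 549 CPM in Cmpd 1 rats and 591 to 747 CPM in Obese rats, without overlap. Of the 26 genes 3 were lower and 0 higher. Most of the sum was Cd4 (−0.50) and Ptprc, the leukocyte antigen CD45 (−0.55), both also made by macrophages. Cd3e, a T cell receptor subunit, was at −0.01 and Cd8a at −0.12, and neither passed. Il7r, the interleukin 7 receptor, was the 1 DEG of the list, at 2.78, 4.11, 3.06, 2.57 and 2.95 CPM in Cmpd 1 rats and 4.62, 5.56, 5.37, 6.59 and 6.02 CPM in Obese rats (log2 fold change −0.86, SE 0.14, edgeR adjusted p = 0.0011). Of 16 B cell and plasma cell genes 2 were lower, Fcrla and Igj, and 14 did not pass. Both calls were lost when 1 of several rats was left out. The median over the list was −0.70, but most members were at low levels. Xbp1, Sdc1 and Cd22 held 55.3%, 36.6% and 4.78% of the list's CPM in Cmpd 1 rats. Of 24 neutrophil, mast cell and dendritic cell genes 4 were lower, 1 was higher and 19 did not pass, with 10 above 0 and a median of −0.03. The list summed to 278 to 388 CPM in Cmpd 1 rats and 288 to 378 CPM in Obese rats, with overlap. Xcr1, a receptor of cross-presenting dendritic cells, was at 0.726, 1.21, 0.812, 0.643 and 0.685 CPM in Cmpd 1 rats and 1.67, 1.52, 1.503, 2.91 and 2.15 CPM in Obese rats (log2 fold change −1.25, SE 0.25, edgeR adjusted p = 0.0038). Siglech, of plasmacytoid dendritic cells, was at 0.182, 0.6199, 0.104, 0.214 and 0.387 CPM in Cmpd 1 rats and 1.26, 1.27, 0.944, 1.26 and 0.7199 CPM in Obese rats (log2 fold change −1.82, SE 0.41, edgeR adjusted p = 0.0067). The groups did not overlap for either. S100a9, a calcium-binding protein of neutrophils, was higher with overlap (1.38), and Cxcr2, a neutrophil chemokine receptor, was lower (−0.70), so 2 neutrophil genes went opposite ways. S100a9 lost its call without Cmpd 1 rat 4 or 5 or Obese rat 3, at 1.14 to 1.32, and Cxcr2 without Obese rat 2, at −0.58. The lipid-associated macrophage genes summed to 22327 to 25866 CPM in Cmpd 1 rats and 26221 to 30462 CPM in Obese rats. Lpl, lipoprotein lipase, which adipocytes make too and which did not pass, averaged 9347 CPM in Cmpd 1 rats, 39.4% of this sum, and 10847 CPM in Obese rats, 38.3% of it. The T cell and NK sum and this sum were lower along with the MHC class II and Fc receptor genes, and the part of these cells in those changes was not tested.

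Some genes of chemokines, which guide leukocytes into tissue, of cytokines and of their receptors were lower. Of 32 tested 5 were lower DEGs, 9 were lower and 1 higher at an adjusted p under 0.05 and 22 did not pass, with a median of −0.40. Ccl2, the monocyte attractant, was at 18.03, 19.1, 22.8, 17.1 and 15.6 CPM in Cmpd 1 rats and 37.1, 33.2, 43.1, 53.3 and 18.7 CPM in Obese rats, where Obese rat 5 lay within the Cmpd 1 range (log2 fold change −1.0005, SE 0.23, edgeR adjusted p = 0.0078). Cxcl10, an interferon-induced chemokine, rested on 1 rat, at 3.33, 1.99, 2.87, 1.13 and 1.55 CPM in Cmpd 1 rats and 5.39, 4.38, 3.65, 32.9 and 2.56 CPM in Obese rats. Without Obese rat 4 its log2 fold change was −0.87 in place of −2.15, and no longer a DEG. The list held 4 lower members without Cmpd 1 rat 4 and 3 without Obese rat 4.

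Of 25 interferon response genes 9 were lower and 0 higher, with a median of −0.36. Oasl, an antiviral oligoadenylate synthetase-like gene, was at 12.2, 8.56, 11.8, 8.58 and 10.1 CPM in Cmpd 1 rats and 15.6, 14.3, 17.9, 29.5 and 20.3 CPM in Obese rats (log2 fold change −0.93, SE 0.17, edgeR adjusted p = 0.0018). Without Cmpd 1 rat 3 there were 17 lower members and 10 lower DEGs, in place of 2, and without Obese rat 4 there were 5 lower members with a median of −0.19. Among 22 Toll-like receptor and inflammasome genes 8 were lower, 2 of them DEGs, and 3 higher, 1 of them a DEG. Tlr8, an endosomal sensor of RNA, was at 101, 101, 90.4, 68.2 and 82.9 CPM in Cmpd 1 rats and 117, 119.9, 142, 159 and 157 CPM in Obese rats (log2 fold change −0.65, SE 0.13, edgeR adjusted p = 0.0032), and was under the fold threshold without Cmpd 1 rat 4 (−0.57). Nod2, a sensor of bacterial cell walls, was at 7.14, 7.004, 5.39, 5.21 and 6.38 CPM in Cmpd 1 rats and 8.05, 7.76, 11.9, 11.9 and 11.4 CPM in Obese rats (log2 fold change −0.71, SE 0.16, edgeR adjusted p = 0.0083). The groups did not overlap for these 3 genes. Trem1, a receptor that amplifies inflammatory signals in myeloid cells, was the higher DEG, at 2.48, 3.602, 2.87, 2.54 and 3.78 CPM in Cmpd 1 rats and 1.68, 2.34, 2.32, 1.57 and 1.32 CPM in Obese rats, also without overlap (log2 fold change 0.73, SE 0.23, edgeR adjusted p = 0.037). Its call was lost without Cmpd 1 rat 2, 4 or 5 or Obese rat 1, 4 or 5, at 0.63 to 0.79. The Toll-like list held 4 lower members without Cmpd 1 rat 4 or 5 or Obese rat 3, 4 or 5, and 5 without Cmpd 1 rat 1, and 1 higher member without Cmpd 1 rat 4 or Obese rat 4.

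Cell adhesion and matrix genes that passed the test were lower, apart from Hyal2. Cd44, the receptor for hyaluronan and osteopontin (rn6 chromosome 3, 92696313 to 92783658), was at 119, 113, 119, 80.7 and 108 CPM in Cmpd 1 rats and 149.98, 146, 187, 205 and 186 CPM in Obese rats, without overlap (log2 fold change −0.70, SE 0.14, edgeR adjusted p = 0.0043). Itga4, an integrin chain that binds osteopontin and VCAM-1, was at 24.1, 23.8, 23.1, 15.4 and 21.8 CPM in Cmpd 1 rats and 33.4, 29.4, 39.1, 42.7 and 39.4 CPM in Obese rats (log2 fold change −0.76, SE 0.15, edgeR adjusted p = 0.0035). In the list of 22 genes around CD44, 4 were lower DEGs, 6 were lower and 1, the hyaluronidase Hyal2 (0.36), was higher. The lower count of this list was 3 without Obese rat 4 and 10 without the Lean libraries. Has2, a hyaluronan synthase, was at 4.11, 7.56, 9.41, 4.56 and 4.83 CPM in Cmpd 1 rats and 5.93, 5.78, 9.91, 8.502 and 3.83 CPM in Obese rats and did not pass (log2 fold change −0.15, SE 0.26, edgeR adjusted p = 0.76). Of 34 matrix processing genes 7 were lower and 0 higher, with 4 lower without Cmpd 1 rat 4 or Obese rat 3. Tnc, tenascin C, was at 31.7, 16.4, 19.3, 13.4 and 27.6 CPM in Cmpd 1 rats and 43.8, 36.8, 57.6, 56.3 and 40.6 CPM in Obese rats (log2 fold change −1.11, SE 0.23, edgeR adjusted p = 0.0041). Lum, the collagen-binding proteoglycan lumican, was at 76.6, 94.7, 73.6, 65.9 and 81.3 CPM in Cmpd 1 rats and 137, 131, 154, 169 and 159.6 CPM in Obese rats (log2 fold change −0.93, SE 0.18, edgeR adjusted p = 0.003). Timp1, an inhibitor of matrix metalloproteinases, fell by 0.71 on the log2 scale. All 3 were apart between the groups. Of 24 collagen genes 5 were lower and 0 higher, among them Col1a1 (−0.56), Col3a1 (−0.54) and Col6a3 (−0.63), the last a DEG. The collagen count was 1 without Obese rat 3, 2 without Cmpd 1 rat 2 or 4 or Obese rat 4, and 3 without Cmpd 1 rat 3 or Obese rat 5.

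Ligands and antagonists of the Wnt and TGF-β pathways were among the genes that moved in both directions, with 6 of 33 higher and 3 lower. The higher count was 10 without Cmpd 1 rat 1, 1 without Cmpd 1 rat 4, and 2 or 3 without Cmpd 1 rat 2 or 5 or Obese rat 1, 4 or 5. Ctgf, connective tissue growth factor, was at 38.6, 39.2, 49.2, 39.8 and 47.4 CPM in Cmpd 1 rats and 79.1, 91.05, 70.8, 68.5 and 111 CPM in Obese rats (log2 fold change −0.97, SE 0.18, edgeR adjusted p = 0.0021). Dkk2, a Wnt antagonist, was at 19.8, 46.1, 40.7, 41.3 and 37.6 CPM in Cmpd 1 rats and 18.1, 28.3, 24.5, 15.5 and 21.4 CPM in Obese rats, with Cmpd 1 rat 1 inside the Obese range (log2 fold change 0.78, SE 0.22, edgeR adjusted p = 0.023). Wnt10b, a Wnt ligand that restrains adipogenesis, was at 0.242, 1.47, 1.19, 1.501 and 1.16 CPM in Cmpd 1 rats and 0.307, 0.547, 0.3496, 0.0722 and 0.382 CPM in Obese rats. Cmpd 1 rat 1 again lay with the Obese rats (log2 fold change 1.72, SE 0.51, edgeR adjusted p = 0.03). The calls of Dkk2 and Wnt10b were each lost without Cmpd 1 rat 2 or 4 or Obese rat 1 or 4, among others, with changes of 0.69 to 0.74 and 1.48 to 1.69 in those 4 fits. Of 21 progenitor and fibroblast genes 1 was higher, 1 was lower and 19 did not pass, with 15 above 0 and a median of 0.21. Thy1, a surface protein of fibroblasts, was the lower one and fell by 0.82 on the log2 scale, at 73.6, 51.6, 43.8, 43.6 and 61.9 CPM in Cmpd 1 rats and 102, 87.5, 118, 96.6 and 80.2 CPM in Obese rats. Fmo2, a flavin-containing monooxygenase, was the higher one, at 45.7, 57.1, 66.2, 91.4 and 64.7 CPM in Cmpd 1 rats and 32.7, 47.4, 31.8, 33.3 and 58.7 CPM in Obese rats, with overlap (log2 fold change 0.67, SE 0.20, edgeR adjusted p = 0.033). Its call was lost without Cmpd 1 rat 3, 4 or 5 or Obese rat 1, 3 or 4, at 0.52 to 0.67.

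Most genes of cholesterol synthesis and uptake were lower in iWAT from Cmpd 1 rats. Of 24 tested, 14 were lower and 1 was higher at an adjusted p under 0.05, 9 did not pass, 5 were lower DEGs (3 without Obese rat 4), and the median was −0.38. Insig1, a sterol-regulated protein that retains the SREBP complex in the endoplasmic reticulum and is counted here with the fatty acid synthesis genes, was at 511, 454, 384, 354 and 408 CPM in Cmpd 1 rats and 882, 694, 616, 736 and 831 CPM in Obese rats. It stood apart between the groups (log2 fold change −0.83, SE 0.11, edgeR adjusted p = 0.00031). Cyp51, the lanosterol demethylase, was at 92.6, 76.3, 63.99, 58.7 and 72.6 CPM in Cmpd 1 rats and 123, 111, 102, 130.3 and 133 CPM in Obese rats (log2 fold change −0.72, SE 0.11, edgeR adjusted p = 0.0009). For both genes Cmpd 1 rat 4 was lowest and rat 1 highest of the Cmpd 1 group, and no Cmpd 1 rat reached an Obese one. Sqle, squalene epoxidase, was at 25.6, 18.98, 16.1, 10.7 and 18.1 CPM in Cmpd 1 rats and 29.5, 29.6, 32.5, 41.1 and 34.6 CPM in Obese rats (log2 fold change −0.90, SE 0.18, edgeR adjusted p = 0.0035). Idi1 was also a DEG (−0.63), under the fold threshold without Obese rat 4 (−0.58). The regulator Srebf2 was lower by less (−0.34). Mylip, a ubiquitin ligase, was the 1 member that rose (0.48). Hmgcs1 (−0.01) and Lss (0.04) were at about 0 and did not pass. Of 15 cholesterol efflux and oxysterol genes 3 were higher, 1 was lower and 11 did not pass, with a median of 0.06. The exporters Abca1 (0.38) and Abcg1 (0.36) and their regulator Nr1h3, or LXRα (0.29), rose below the fold threshold, and Nceh1, a cholesterol ester hydrolase, was lower (−0.47). Without Cmpd 1 rat 4 or Obese rat 1 there was 1 higher member. Of the 16 promoters of the list found in RefSeq, TCACCCC, within the sterol regulatory element, was in 1, against 3.83% of all promoters, and CCAAT was in 13, against 34.3%.

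Fatty acid synthesis genes did not move as a group. Of 23 tested 4 were lower and 2 higher, with a median of −0.07, and 3 were lower DEGs. Scd1, the stearoyl-CoA desaturase (rn6 chromosome 1, 264160129 to 264172729), was at 4884, 4101, 2268, 1654 and 3887 CPM in Cmpd 1 rats and 9765, 7104, 7887, 8284 and 7951 CPM in Obese rats. Cmpd 1 rat 4 had the lowest level and rat 1 the highest of the group, and none reached the lowest Obese rat (log2 fold change −1.29, SE 0.24, edgeR adjusted p = 0.0024). Fasn, fatty acid synthase, was at 575, 407, 371, 373 and 525 CPM in Cmpd 1 rats and 1144, 784, 609.8, 598 and 822 CPM in Obese rats (log2 fold change −0.82, SE 0.19, edgeR adjusted p = 0.0083). Obese rat 1 was highest and the closest pair was Cmpd 1 rat 1 and Obese rat 4. Acacb, the carboxylase of the mitochondrial surface (0.41), and the regulator Srebf1 (0.28) were higher below the fold threshold, and Acly (−0.07), Acaca (−0.02) and Elovl6 (0.20) did not pass.

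Of 22 genes of triglyceride assembly and lipid droplets 2 were lower and 0 higher, and Plin2 kept its call in all alternatives run. Plin2, a droplet coat protein, was at 695, 603, 519, 428 and 589 CPM in Cmpd 1 rats and 758, 722, 1008, 1179.6 and 950.4 CPM in Obese rats (log2 fold change −0.70, SE 0.17, edgeR adjusted p = 0.011), whereas Plin1, the coat protein of adipocytes, was at 0.09 and did not pass. Among 18 lipolysis genes Lipe, hormone-sensitive lipase, rose below the fold threshold (0.43) and Lipa, the lysosomal acid lipase, fell below it (−0.55). Pnpla2, the adipose triglyceride lipase, had a change of 0.65 and did not pass. Fabp4, the fatty acid carrier of adipocytes, was at 7209, 7824, 6774, 6880.1 and 7177 CPM in Cmpd 1 rats and 8589, 8563, 8135, 9337 and 9107 CPM in Obese rats, a fall below the fold threshold without overlap (log2 fold change −0.29, SE 0.08, edgeR adjusted p = 0.021). Pnpla3, a lipid droplet protein, fell with overlap (−0.86) and its call was lost without Obese rat 1 (−0.63) or Cmpd 1 rat 4 or 5 (−0.84 and −0.79).

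Hormones of the adipocyte changed at the transcript level. Lep, the leptin gene (rn6 chromosome 4, 56337695 to 56351818), was at 3713, 3603, 3435, 3214 and 3889.6 CPM in Cmpd 1 rats and 6044, 5952, 4590.1, 5730.2 and 6013 CPM in Obese rats. Cmpd 1 rats lay close together, below every Obese rat (log2 fold change −0.67, SE 0.11, edgeR adjusted p = 0.00093). Lepr, whose protein is the receptor that is mutant in both groups, was at 1.38, 1.34, 1.62, 1.35 and 1.48 CPM in Cmpd 1 rats and 1.24, 1.47, 1.89, 1.44 and 1.76 CPM in Obese rats, with overlap (log2 fold change −0.12, SE 0.25, edgeR adjusted p = 0.8). Apln, the peptide apelin, was at 23.4, 14.5, 18.5, 15.7 and 12.5 CPM in Cmpd 1 rats and 47.4, 42.9, 27.3, 25.02 and 29.8 CPM in Obese rats (log2 fold change −1.03, SE 0.20, edgeR adjusted p = 0.0032). Serpina12, or vaspin, was low at 1.68, 1.02, 2.42, 1.53 and 1.09 CPM in Cmpd 1 rats and 2.89, 4.36, 2.902, 2.94 and 2.53 CPM in Obese rats (log2 fold change −1.02, SE 0.25, edgeR adjusted p = 0.011). These and Gdf15 (−0.67) were among 5 lower DEGs of 22 adipokine genes, and 0 were higher. Adipoq, adiponectin (0.20), Retn, resistin (−0.47), and Cfd, adipsin (0.33), did not pass.

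Some adipocyte identity genes rose by small amounts. Of 25 tested 10 were higher and 0 lower at an adjusted p under 0.05, 15 did not pass, 0 were DEGs, and the median was 0.20. Scaling by library size alone gave 2 DEGs and 13 higher members, and without Cmpd 1 rat 4 or Obese rat 3, 4 or 5 there were 6 higher. Slc2a4, the insulin-responsive glucose transporter GLUT4, was at 98.5, 94.8, 110.02, 120.4 and 106 CPM in Cmpd 1 rats and 78.3, 78.3, 59.2, 64.2 and 76.8 CPM in Obese rats. The groups were apart and the fold was just under the threshold (log2 fold change 0.57, SE 0.10, edgeR adjusted p = 0.0015), and over it without Cmpd 1 rat 1 or 2 or Obese rat 1, 2 or 5 (0.60 to 0.61). Klf15, a transcription factor (0.54), Cebpa (0.26) and Rxrg (0.32) rose below the threshold, and Pparg, the master regulator of adipocytes, was at −0.01. Among 22 insulin signalling genes 5 were higher and 1 lower, with 3 higher without Cmpd 1 rat 4 or Obese rat 1, 4 or 5. Insr, the insulin receptor, was at 57.99, 53.8, 58.4, 65.4 and 61.9 CPM in Cmpd 1 rats and 46.3, 50.4, 44.8, 46.6 and 51.8 CPM in Obese rats, without overlap (log2 fold change 0.31, SE 0.06, edgeR adjusted p = 0.0027). Of 24 genes of branched-chain amino acid breakdown 9 were higher and 1 lower, with 2 higher without Cmpd 1 rat 4 and 5 without Obese rat 1. Bcat2, the mitochondrial transaminase that starts this pathway, was at 78.05, 88.9, 81.5, 96.5 and 90.5 CPM in Cmpd 1 rats and 66.9, 70.95, 72.5, 68.6 and 69.9 CPM in Obese rats (log2 fold change 0.32, SE 0.07, edgeR adjusted p = 0.0056). Bckdha, a subunit of the dehydrogenase (0.34), and its kinase Bckdk (0.20) and phosphatase Ppm1k (0.32) also rose, and Bcat1, the cytosolic transaminase, fell (−0.48), all below the fold threshold.

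Most adrenergic and thermogenic genes did not pass the test. Of 23 adrenergic and cAMP genes 3 were higher and 0 lower, with 1 higher without Cmpd 1 rat 4, and the median was 0.07. Of 20 beige and thermogenic genes 4 were higher, 1 was lower and 15 did not pass, with 12 below 0 and a median of −0.06. Adrb1, the β1-adrenergic receptor, was at 6.504, 4.91, 4.37, 8.98 and 6.24 CPM in Cmpd 1 rats and 4.17, 3.33, 3.48, 3.48 and 3.599 CPM in Obese rats (log2 fold change 0.77, SE 0.20, edgeR adjusted p = 0.017). The groups did not overlap, and without Cmpd 1 rat 4 the change was 0.61 and the call was lost. Adrb3, the β3 receptor of adipocytes, was at 50.8, 77.6, 57.4, 59.8 and 55.8 CPM in Cmpd 1 rats and 61.9, 56.1, 43.8, 33.9 and 55.7 CPM in Obese rats, with overlap (log2 fold change 0.26, SE 0.16, edgeR adjusted p = 0.31). Slc36a2, an amino acid transporter known as a brown adipocyte marker in mouse, was at 13.6, 13.6, 13.1, 18.5 and 14.6 CPM in Cmpd 1 rats and 9.95, 12.6, 7.48, 7.29 and 9.09 CPM in Obese rats (log2 fold change 0.65, SE 0.16, edgeR adjusted p = 0.012), and fell to 0.56 to 0.58, under the threshold, without Cmpd 1 rat 4 or Obese rat 3 or 4. Ucp1, the uncoupling protein, had a change of −1.33 that did not pass. Ppargc1b, a coactivator of mitochondrial genes, was at 10.1, 9.55, 8.93, 9.19 and 10.8 CPM in Cmpd 1 rats and 9.91, 8.93, 10.2, 8.43 and 13.3 CPM in Obese rats, with no call. Of 29 nuclear respiratory chain genes 1 was higher and 0 lower, with a median of −0.01.

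Protein kinase C genes gave 0 DEGs. Prkca, the α isoform (rn6 chromosome 10, 96191133 to 96584947), was at 9.77, 12.7, 14.4, 14.1 and 13.99 CPM in Cmpd 1 rats and 9.94, 12.1, 13.1, 12.02 and 11.03 CPM in Obese rats, with overlap (log2 fold change 0.16, SE 0.11, edgeR adjusted p = 0.38). Prkcb, the β isoform (rn6 chromosome 1, 192233910 to 192574831), was at 12.6, 13.2, 12.6, 11.9 and 13.2 CPM in Cmpd 1 rats and 15.6, 14.98, 17.6, 17.5 and 17.3 CPM in Obese rats. It was lower without overlap, below the fold threshold (log2 fold change −0.38, SE 0.09, edgeR adjusted p = 0.0077). Prkcd (−0.35) and Prkch (−0.24) were also lower and Prkci (0.27) and the related kinase Prkd1 (0.48) higher, all below the threshold. Dgki, a diacylglycerol kinase, was the 1 DEG of 26 genes (−0.91), and its call was lost without Cmpd 1 rat 4 (−0.81) or Obese rat 4 (−0.83).

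Some lists of stress and rhythm genes complete the account. Vegfa, the vascular growth factor, was at 190.4 ± 8.45 CPM in Cmpd 1 rats and 137 ± 11.3 CPM in Obese rats (SD, n = 5 each), apart between the groups and below the fold threshold (log2 fold change 0.48, SE 0.08, edgeR adjusted p = 0.0015). Among 22 hypoxia genes 5 were higher (3 without Cmpd 1 rat 4 or Obese rat 3, 4 or 5) and 3 lower, with Hif1a lower (−0.23) and Epas1 higher (0.27). Of 26 genes of the unfolded protein and stress responses 7 were lower and 0 higher, and leaving out any rat but Obese rat 1 gave 0 to 4 lower, the fewest without Cmpd 1 rat 4. Of 20 clock genes 5 were higher and 0 lower. For Cmpd 1 over Food matched rats 1 of the 20 was higher and 1 lower, with a median of −0.06. The median for Food matched over Obese rats was 0.12, with 0 genes passing. Tef, a clock output factor, was at 129, 140.4, 129, 134 and 126 CPM in Cmpd 1 rats and 111, 112, 112, 114 and 111 CPM in Obese rats (log2 fold change 0.23, SE 0.05, edgeR adjusted p = 0.0081), and Per3 (0.39), Cry1 (0.37) and Dbp (0.49) also rose below the threshold. Slc11a1, an iron transporter of macrophage phagosomes, was at 14.9, 14.5, 13.4, 11.9 and 13.1 CPM in Cmpd 1 rats and 18.3, 19.2, 23.5, 23.6 and 20.1 CPM in Obese rats (log2 fold change −0.62, SE 0.11, edgeR adjusted p = 0.0013), and was at −0.58 without Cmpd 1 rat 4, Obese rat 3 or Obese rat 4.

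The Food matched group had a restricted intake and no compound. Food matched against Obese rats gave 0 DEGs (0%) with edgeR, whose lowest adjusted p was 0.0647. Before adjustment 1887 genes were under 0.05, and limma-voom called 10 DEGs and DESeq2 69. Cmpd 1 against Food matched rats gave 1092 DEGs (6.19%), 272 higher (1.54%) and 820 lower (4.65%). These comparisons share libraries with that of Cmpd 1 and Obese rats, so each gene's own values are given side by side. RT1-Da was at 436 ± 87.6 CPM in Cmpd 1, 765 ± 58.1 CPM in Food matched, 820.01 ± 59.6 CPM in Obese and 334 ± 18.7 CPM in Lean rats (SD, n = 5 each). Mki67 was at 26.96 ± 7.84 CPM in Cmpd 1, 56.9 ± 11.02 CPM in Food matched, 53.7 ± 9.38 CPM in Obese and 8.69 ± 2.68 CPM in Lean rats. Cyp51 was at 72.8 ± 13.1 CPM in Cmpd 1, 109 ± 14.1 CPM in Food matched, 119.9 ± 12.98 CPM in Obese and 57.4 ± 6.904 CPM in Lean rats. For all 3 the Food matched mean lay near the Obese mean, and the log2 fold changes of Cmpd 1 over Food matched rats were −0.81, −1.07 and −0.59.

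Other genes had Food matched levels between those of Cmpd 1 and Obese rats or level with Cmpd 1. Cilp was at 86.1 ± 10.1 CPM in Cmpd 1, 159 ± 46.6 CPM in Food matched, 268 ± 60.6 CPM in Obese and 56.9 ± 5.72 CPM in Lean rats, with −0.89 for Cmpd 1 over Food matched and −0.75 for Food matched over Obese. Megf10 had −0.78 and −0.82 in the same 2 contrasts, Apln −0.50 and −0.53, Serpina12 −0.23 and −0.78 and Srms 0.59 and 0.89. Abcg1 was at 219.5 ± 13.6 CPM in Cmpd 1, 221 ± 17.5 CPM in Food matched and 170.4 ± 17.4 CPM in Obese rats. The Food matched over Obese changes of these genes did not pass (edgeR adjusted p = 0.1 for Cilp and 0.16 for Abcg1), nor did Cmpd 1 over Food matched for Apln, Serpina12, Srms and Abcg1. The third set stood higher in Food matched than in Obese rats. Klk6 was at 5.297 ± 1.97 CPM in Cmpd 1, 56.1 ± 28.5 CPM in Food matched and 23.4 ± 6.41 CPM in Obese rats. Tnc was at 21.7 ± 7.72 CPM in Cmpd 1, 84.1 ± 24.1 CPM in Food matched and 47.03 ± 9.42 CPM in Obese rats. These genes too did not pass for Food matched over Obese, while both were DEGs for Cmpd 1 over Food matched (−3.39 and −1.95). Which of these sets a gene fell in was read after the values were seen.

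**Figure D5:**
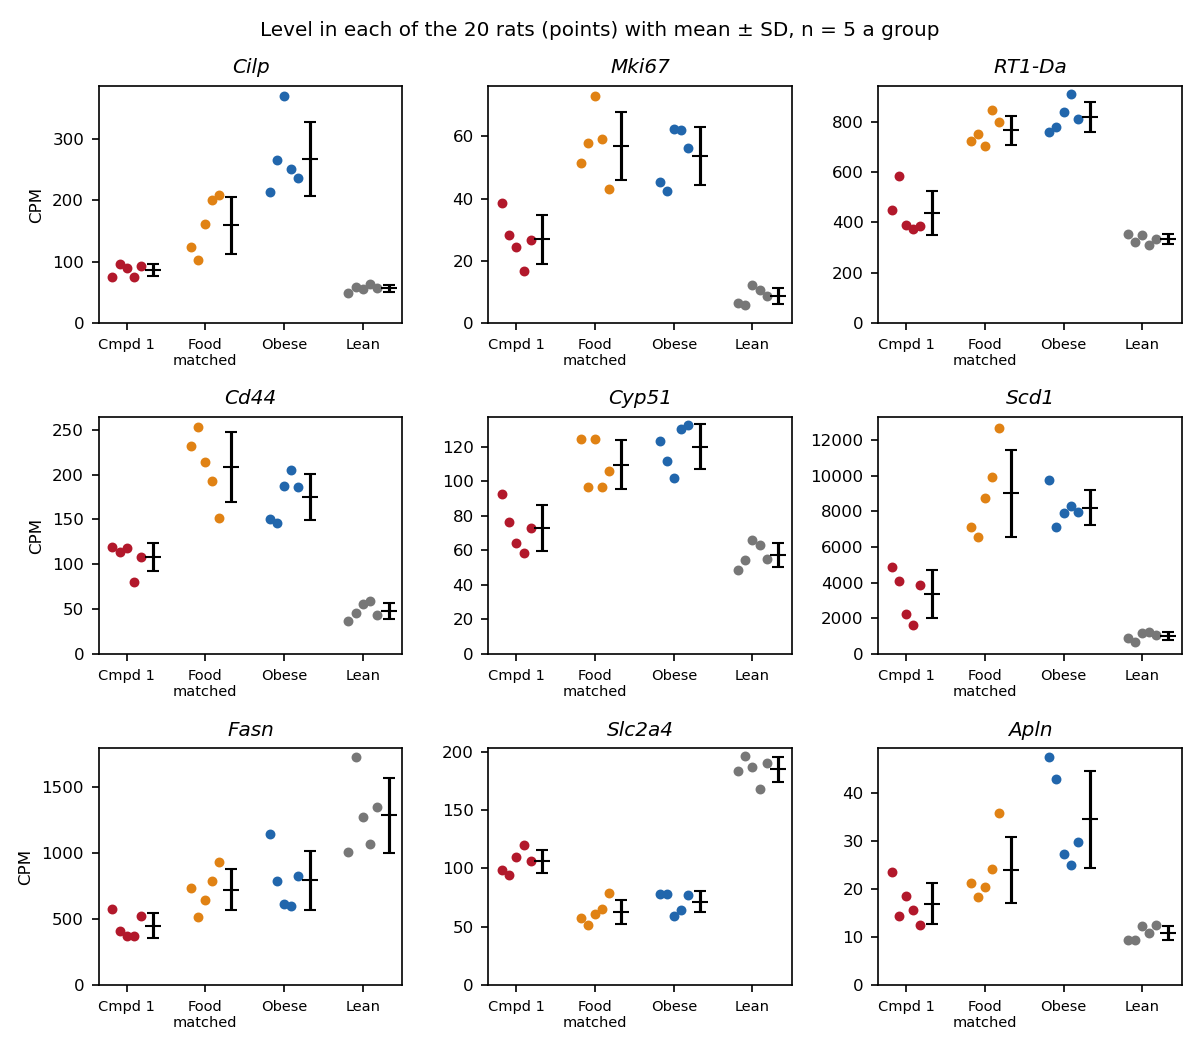
CPM of 9 genes in each of the 20 rats (y axes start at 0), from left Cmpd 1, Food matched, Obese and Lean, with the mean and SD of 5 rats beside the points. Food matched rats sit with Obese rats for RT1-Da and Mki67 and between Cmpd 1 and Obese rats for Cilp, and Fasn is the one gene shown whose Cmpd 1 mean lies farther from the Lean mean than the Obese mean does.

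Levels in Lean rats place the changes on the scale of obesity in this strain. Scd1 was at 3359 ± 1346 CPM in Cmpd 1, 9006 ± 2447 CPM in Food matched, 8198 ± 977 CPM in Obese and 1016 ± 221 CPM in Lean rats. Cd44 was at 108 ± 15.9 CPM in Cmpd 1, 209 ± 38.9 CPM in Food matched, 175 ± 25.8 CPM in Obese and 48.01 ± 9.18 CPM in Lean rats. Both lay between Obese and Lean rats with Cmpd 1. Lep was at 3571 ± 259 CPM in Cmpd 1 and 3427 ± 549 CPM in Lean rats, and Slc2a4 was at 106 ± 10.05 CPM in Cmpd 1 and 185 ± 10.5 CPM in Lean rats. Fasn went the other way, at 449.9 ± 93.9 CPM in Cmpd 1, 719.98 ± 155 CPM in Food matched, 792 ± 221 CPM in Obese and 1284 ± 283 CPM in Lean rats. Grifin and Polr2a did not pass for Obese over Lean rats (log2 fold changes 0.35 and −0.00015) and differed between Cmpd 1 and Food matched rats (−1.31 and 0.55). Against Lean rats, Cmpd 1 rats had 2926 DEGs (16.6%), and Obese rats had 3929 (22.3%). The skeletal muscle genes summed to 3539 CPM in Lean rat 1 and 6192 CPM in Lean rat 2, and to 23.3 to 25.7 CPM in the other Lean rats. All 10 tested muscle genes were among the lower DEGs of Obese over Lean rats. The mesothelial sums were also highest in Lean rats 1 and 2, at 298 and 154 CPM. How much other tissue adds to the counts against Lean rats was not tested.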

How the data were processed

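RNA from inguinal fat of 20 rats, 5 per group, was sequenced from TruSeq stranded mRNA libraries. The deposited values are raw counts for each Ensembl gene of reads with a single mapping position, which the authors made with STAR alignment to rn6 and featureCounts. The submitters' processing notes name STAR 2.5.2, Subread 1.5.1 and GRCh38, a human build, while the coordinates in the file are those of rn6. Whether the counting used strand is not given in the sources used here, so overlapping and antisense genes cannot be told apart.

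Genes without a read in at least 10 of the 20 libraries were left out, 14892 of 32545. The other 17653 were tested with edgeR 4.0.16 in R 4.3.3 (TMM scaling, quasi-likelihood F-test, 1 model of the 4 groups), with Benjamini-Hochberg adjustment over all genes tested. CPM values use TMM-scaled library sizes. Log2 CPM values in the principal component analysis and the correlations between rats use a prior count of 2, and fitted fold changes the edgeR default. Pairs of libraries within each group were checked for differences no larger than counting noise, and there were 0. Pairs across groups were not checked. The test was tried on simulated counts. Alternatives were library-size or DESeq2-type scaling, limma-voom (limma 3.58.1), DESeq2 1.42.0, other filters, fewer libraries, thinned counts, a replicate block and leaving out each rat. Named genes were the 12 largest increases and decreases that carry an assigned symbol, average 1 CPM or more and do not overlap between groups, the DEGs of smallest adjusted p in each list, the 10 smallest p-values and genes the study names; other list members are named to describe their list, and some genes within these rules are not reported here. The comparison, lists and motifs were chosen with earlier results of these data known. Promoter sequences came from RefSeq (GRCr8), matched by symbol, and their starts need not be those of the genes counted in rn6.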

Additional observations from a re-analysis of the deposited data

Results flagged for a closer look

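In 276 sets of 5 rats, 32 values lay far from the other 4 rats of their group by Dixon's test, where chance alone flags about 1 in 20 sets. Most were in a few rats.

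Obese rat 2 stood apart for 2 mesothelial genes, Msln at 61.5 CPM and Lrrn4 at 16.6 CPM, where no other Obese rat exceeded 1.73 CPM. The same rat was the highest of its group for genes that were higher with Cmpd 1, namely RGD1311739 at 55.4 CPM and Slc43a3 at 59.2 CPM, and for Serpina12 at 4.36 CPM, Sod3 at 450.2 CPM and Lamp1 at 823 CPM. Cmpd 1 rat 3 was the highest of its group for Msln at 4.602 CPM and Lrrn4 at 1.06 CPM, and for Mogat1, a monoacylglycerol acyltransferase, at 1.06 CPM.

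Obese rat 4 was the highest of its group for 4 genes that were lower with Cmpd 1, Cxcl10 at 32.9 CPM, Tnfaip6 at 32.9 CPM, Gbp4 at 10.2 CPM and Scgb2a1 at 37.9 CPM. Scgb2a1 was at 0.0303 CPM in Cmpd 1 rat 1 and at 0 in the other Cmpd 1 rats. Cmpd 1 rat 4 was the highest of its group for RGD1311739 at 85.6 CPM and Slc36a2 at 18.5 CPM and the lowest for Itga4 at 15.4 CPM and Ccr1 at 45.2 CPM. Cmpd 1 rat 1 lay toward the Obese rats for Wnt10b at 0.242 CPM, Chac1 at 0.333 CPM and Madcam1 at 0.136 CPM, and was low for Gpx3 at 1404 CPM.

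Single values elsewhere were Polr2a at 272 CPM and Hipk2 at 125 CPM in Cmpd 1 rat 2, Alas2 at 10.6 CPM in Cmpd 1 rat 5, and Lep at 4590.1 CPM and Slc4a1 at 2.19 CPM in Obese rat 3. The muscle genes Myh1 at 0.485 CPM and Acta1 at 0.206 CPM were low in Obese rat 5, and Serpina1 was at 0.278 CPM and the mitochondrial share at 12.3% in Obese rat 1.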

How the results depend on the processing

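The number of DEGs for Cmpd 1 over Obese rats was 623, and 365 to 751 without 1 rat, 64 to 198 of them higher and 301 to 553 lower. At an adjusted p under 0.05 there were 613 to 1224 genes higher and 636 to 1281 lower without 1 rat. The lowest counts came without Cmpd 1 rat 4 (365 DEGs) and Obese rat 4 (394), and the count of higher DEGs was 198 without Cmpd 1 rat 1. Higher genes numbered 830 without Cmpd 1 rat 5 and 704 without Obese rat 4. With library size as the only scaling there were 198 higher DEGs and 2279 higher genes, and no filter on low counts gave 777 higher genes. With a fold over 2 there were 211 DEGs, 41 higher and 170 lower. Other settings gave 561 DEGs with limma-voom, 694 with DESeq2, 749 with these 10 libraries only, 748 without the Lean group and 595 with thinned counts. For Food matched over Obese rats the count was 0, but 10 with limma-voom, 69 with DESeq2, 12 without the Lean group and 15 without Lean rats 1 and 2, a setting chosen after seeing the data. Without Lean rats 1 and 2, whose muscle genes were high, Cmpd 1 over Obese rats gave 766 DEGs. The cause of these shifts was not tested. The difference in mitochondrial share was −0.945 percentage points and −1.37 to −0.579 without 1 rat. It was −1.37 without Cmpd 1 rat 1 (exact permutation p = 0.0159) and −0.579 without Obese rat 1 (exact permutation p = 0.31).

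Rats with the same number did not deviate together over all genes (correlations of −0.10 to 0.0099). This shows no strong pairing by number, but a weak pairing would not be seen in such correlations. With a replicate block there were 582 DEGs for Cmpd 1 over Obese rats and 2 for Food matched over Obese rats. The mitochondrial difference, tested by flipping the signs of the 5 differences between rats of the same number, had an exact p of 0.0625. That is the lowest p such a test of 5 differences can give, so it could not have passed 0.05. Of the 141 named genes, 28 lost their call without Cmpd 1 rat 4 and 23 without Obese rat 4, 1 with DESeq2-type scaling and 9 with library size alone. The direction of 3 genes that were not called turned: Msln ran between −4.70 and 0.88 without 1 rat (0.88 without Obese rat 2), Has2 between −0.36 and 0.0225 (without Obese rat 3), and Ppargc1b between −0.12 and 0.0519 (without Obese rat 5) and at 0.0080 with thinned counts. The depth of Cmpd 1 rat 4 limits its low genes most.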
